A study of Drosophila melanogaster with 12 samples.

Results

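Phototransduction is the cascade that turns absorbed light into a change of membrane voltage in photoreceptor cells. In the adult fly eye, a rhodopsin with a carotenoid-derived chromophore activates a Gq protein, which activates a phospholipase C, and cation channels of the TRP family then open. Arrestins, phosphatases, kinases and calcium exchange end the response, and a cycle of lipid enzymes restores the phosphoinositide substrate. In the eye disc of a wandering larva, photoreceptor neurons are being specified and are sending out axons, while rhabdomeres, the membranes that hold the adult cascade, form later in the pupa.

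The 34 genes described here were listed by function: rhodopsins, the chromophore pathway, G proteins, lipid enzymes, channels, scaffold and kinases, and genes that end the response. Of these, 24 had a probe set named to that gene alone in the platform annotation, 36 probe sets in all, out of 13647 probe sets and 11983 genes named in that way in the series. No probe set is named here for ninaE, Rh2, Rh3, Rh4, Rh5, Rh6, norpA, ninaA or ninaC. Ggamma30A had only 2 probe sets, both shared with another gene. These 10 genes were not analysed here, so Rh7 was the only rhodopsin measured. A gene with several probe sets is represented by the one with the highest mean over all arrays.

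Expression was measured on 12 arrays of Drosophila melanogaster eye imaginal discs, taken from wandering larvae of instar 3 with the antennal part removed, in 4 groups of 3 arrays. In the Runt experiment, discs of genotype w; ro-Gal4/UAS-Run were compared with discs of genotype w; ro-Gal4/UAS-Run[G163R]. Both groups thus carried a Runt transgene under the ro-Gal4 driver, and no array of this experiment lacked it. The driver is built on the rough gene, which is active in some of the cells of the disc. In the sens experiment, mutants of genotype w; sensDF2RES/sensDF2RES; sensE1/sensE1 were compared with controls, w; sensDF2RES/+; sensE1/+, which carried both elements in 1 copy. All 4 groups share the w marker as the labels write it. The labels do not say what each sens element does, and both elements differ in copy number between mutants and controls. Nor do the labels tie a replicate to its own cross or animal. The p-values therefore measure only the spread between these arrays, which may be technical. RNA came from bulk tissue, so fewer cells of a type and less RNA per cell cannot be told apart.

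Values are log2 expression levels with a dense floor. Array medians lay between 2.60 and 2.68, and 38.3% to 39.9% of probe sets exceeded 5 on an array. The discs carried the transcripts that define developing photoreceptors. Of 20 eye disc and photoreceptor markers, 18 were above 5 in all 12 arrays. The group means of chp, which encodes the photoreceptor adhesion protein chaoptin, were 10.3 to 10.8, those of the pan-neuronal gene elav 11.1 to 11.7, and those of gl, a photoreceptor transcription factor gene, 11.4 to 12.5. The exceptions were Pph13, described with the rhodopsin regulators, and boss, the R8 ligand gene, which was at 2.42 in the mutants and at 6.29 to 6.93 in the other groups. Markers of other tissues were present too, and their values stand beside the results they move with. The label of Runt itself could not be checked, because run has no probe set named here.

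Most of the measured members lay in the floor. Of 24, 14 were at or under 5 in all 12 arrays (58.3%, against 46.0% of all genes), 6 were above 5 in all arrays (25%, against 46.7% of all genes) and 4 crossed 5. The 14 low members spanned 2.04 to 3.34, and 11 of them were under the array's own median on all 12 arrays. The threshold of 5 describes a probe set, and levels are not compared between genes, since probe sets differ in how strongly they bind.

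**Figure D1:**
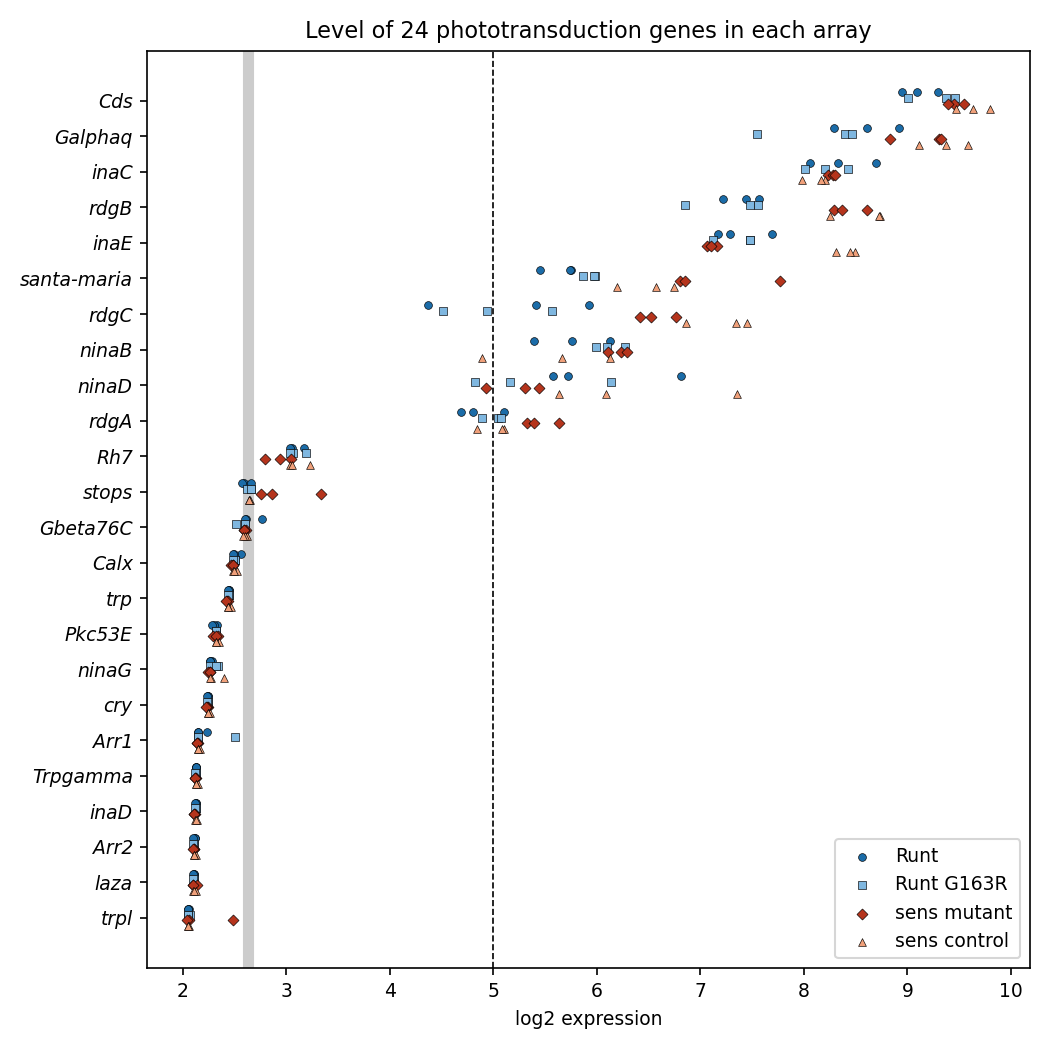
Level (log2 expression, x axis) of the 24 measured members (rows) in each of the 12 arrays, with 1 symbol per group. The dashed line marks 5 and the grey band the range of array medians, 2.60 to 2.68. The rows are arranged by mean, and 14 genes stay at or under 5 in all arrays while 10 reach above it.

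The 3 channel genes and Rh7 lay in the floor in all groups, while the other 6 rhodopsin genes listed were not measured. Rh7, a rhodopsin gene also known from clock neurons, was at 2.79 to 3.23 over all arrays, and its other probe set at 2.39 to 2.46. The light-gated channel gene trp was at 2.41 to 2.47. Its partner trpl was at 2.04 to 2.07 in 11 arrays and at 2.48 in mutant replicate 2. Trpgamma, another gene of this channel family, was at 2.12 to 2.15. None of these channel genes left the floor in any group. The blue-light receptor gene cry was at 2.23 to 2.26.

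Among genes that end the response, both visual arrestin genes lay in the floor. Arr2 was at 2.10 to 2.13. Arr1 was at 2.14 to 2.23 in 11 arrays and at 2.50 in Runt G163R replicate 1. Calx, a sodium-calcium exchanger gene, was at 2.46 to 2.56. The gene stops, whose SOCS-box protein is needed for normal phospholipase C levels in the eye, was at 2.58 to 2.66 in the Runt experiment and at 2.64 to 2.65 in the controls, but at 3.34, 2.75 and 2.86 in the mutants. The mutants did not overlap the controls for stops. This difference in the floor was 0.34 (log2, SE 0.117, limma adjusted p = 0.0763). Without mutant replicate 1 it was 0.16 (adjusted p = 0.0298), and without mutant replicate 2 it was 0.45 (adjusted p = 0.0261). The phosphatase gene rdgC was the only gene of this role above the floor and is described with the differences between experiments.

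The remaining low members were spread over the other roles. They were inaD (2.11 to 2.14), the PDZ scaffold that holds the cascade's proteins together, and Pkc53E (2.28 to 2.35), a protein kinase C gene. Gbeta76C, the eye's G protein beta subunit, was at 2.51 to 2.77. The lipid phosphate phosphatase gene laza was at 2.09 to 2.14 and ninaG, an oxidoreductase gene of chromophore synthesis, at 2.25 to 2.39. Of the 14 low members, 9 (trpl, Trpgamma, inaD, Arr1, Arr2, ninaG, laza, cry and Pkc53E) did not pass the filter on low values, which asked for a value over the 40th percentile of the array on 3 or more arrays. They were not tested. The other 5, with the 10 higher members, make up the 15 tested.

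The 6 members above 5 in every array were Galphaq, inaC, inaE, rdgB, santa-maria and Cds. Those crossing 5 were ninaB, ninaD, rdgA and rdgC. Of 5 measured genes of the lipid cycle, 3 were above 5 in every array and 1 crossed it. Several of these genes also act outside the eye, where Galphaq, Cds and inaE have general roles in signalling and lipid metabolism.

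Galphaq encodes the alpha subunit of the G protein that couples rhodopsin to phospholipase C. Its brightest probe set was at 8.29, 8.61 and 8.92 in Runt, at 7.55, 8.40 and 8.46 in Runt G163R, at 9.30, 8.83 and 9.33 in mutants against 9.11, 9.37 and 9.59 in controls. For this probe set the groups overlapped within both experiments. A second probe set ran the other way between the experiments, with means of 8.85 and 9.07 in Runt and Runt G163R against 8.26 and 7.84 in mutants and controls. There the mutants lay above the controls without overlap, by 0.42 (adjusted p = 0.0930). The adjusted p was 0.0369 with array weights and 0.0179 without mutant replicate 2, where the difference was 0.59, and 0.274 without mutant replicate 3, where it was 0.27. The remaining one had means of 7.52 and 7.30 against 6.77 and 7.03. The direction for Galphaq between experiments therefore depended on the probe set.

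The gene inaC, which encodes the eye protein kinase C, was at 8.33, 8.70 and 8.06 in Runt and at 8.01, 8.21 and 8.43 in Runt G163R. It was at 8.23, 8.28 and 8.30 in mutants against 8.20, 7.98 and 8.17 in controls. The mutants lay above the controls without overlap, by 0.15 (SE 0.157, adjusted p = 0.529), which missed the threshold. The level of inaC was above 8 in 11 of 12 arrays. Cds, the CDP-diacylglycerol synthase gene that feeds phosphatidylinositol synthesis, had group means of 9.11 ± 0.173, 9.28 ± 0.239, 9.46 ± 0.0764 and 9.63 ± 0.164 (SD, n = 3) in Runt, Runt G163R, mutants and controls. Its groups overlapped in both comparisons.

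The Runt comparison asks whether these transcripts differ between discs expressing wild-type Runt and discs expressing Runt G163R. None of the 15 tested members passed the limma test at an adjusted p under 0.05, and the smallest adjusted p was 0.835. At an unadjusted p under 0.05 the count was also 0, against 6.70% of all genes tested. Over all genes tested, 0.0365% were called in this comparison, so a count of 0 is near the background. The median difference of the 15 was 0.02 (log2), against -0.01 for all genes tested.

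The largest difference was that of ninaD, a scavenger receptor gene for carotenoid uptake, which stood at 5.72, 5.57 and 6.81 in Runt and at 5.16, 4.82 and 6.13 in Runt G163R. The groups overlapped, and the difference of 0.66 had a 95% interval of -0.45 to 1.78. It was 0.28 without Runt replicate 3, 0.39 without Runt G163R replicate 2 and 1.04 without Runt G163R replicate 3. For Galphaq the difference was 0.47 (interval -0.11 to 1.06), or 0.18 without Runt G163R replicate 1, and for ninaB -0.36 (interval -1.01 to 0.29). The intervals of 4 of the 10 members above the floor reached a 2-fold change in 1 direction, those of ninaB, ninaD, Galphaq and rdgC. For these probe sets a change of that size was not excluded. The other probe sets of Galphaq had differences of -0.22 (interval -0.57 to 0.12) and 0.23 (interval -0.16 to 0.62), which did not reach it. The groups did not overlap for 1 of the 15 tested members, santa-maria, against 9.9% of all genes tested. It was at 5.45, 5.75 and 5.74 in Runt and at 5.98, 5.87 and 5.97 in Runt G163R, a difference of -0.29 (SE 0.252).

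**Figure D2:**
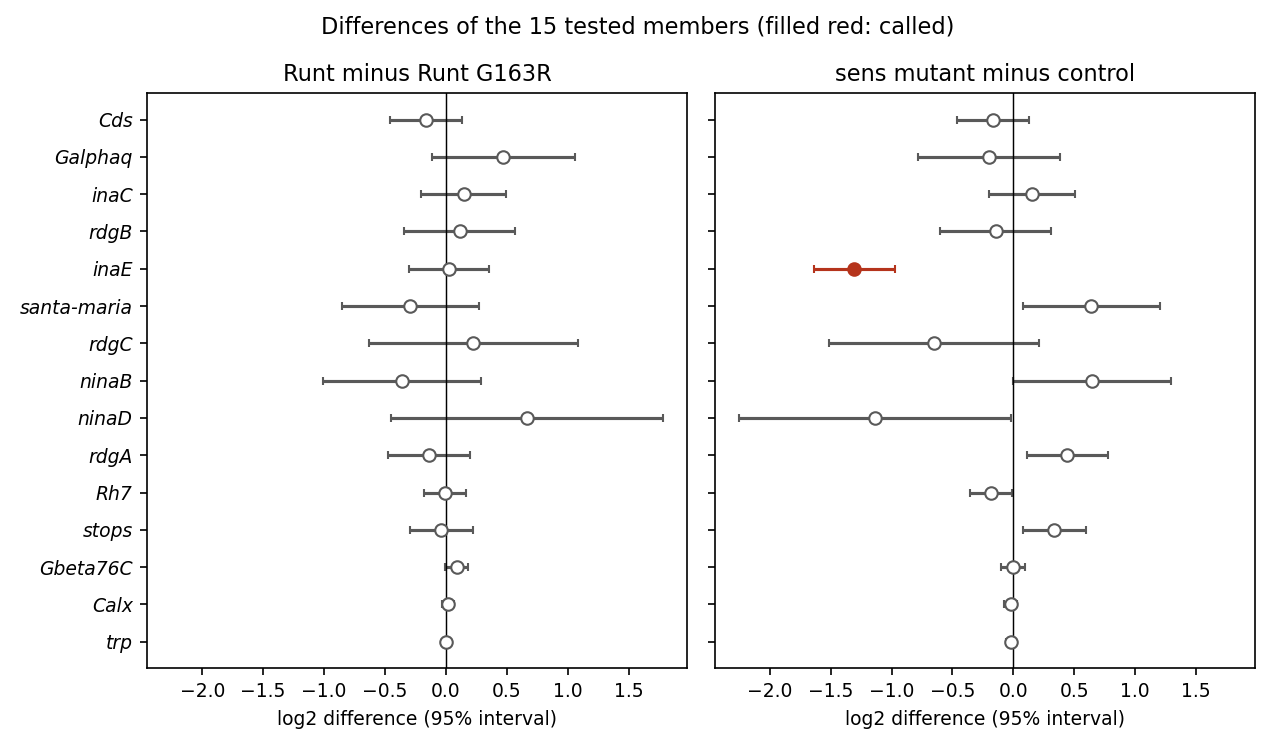
Log2 difference (x axis) with its 95% interval for the 15 tested members, Runt minus Runt G163R on the left and sens mutant minus control on the right. The filled red point, inaE in the sens comparison at -1.30, is the only member called, and open points did not pass the test.

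The sens comparison asks which of these transcripts change in discs with the mutant genotype. Of the 15 tested members, 1 fell, inaE, and none rose. Over all genes tested 5.97% were lower and 13.4% higher, 19.3% in all. The 1 fall among 15 (6.67%) is near the share that was lower, and 15 members are few for a share. At an unadjusted p under 0.05 the count was 7 of 15, against 35.1% of all genes tested. The median difference of the 15 was -0.02 (log2), against 0.07 for all genes tested. The groups did not overlap for 8 of 15, 4 higher and 4 lower in the mutants, against 41% of all genes tested, 27.3% higher and 13.7% lower.

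The gene inaE lies on the X chromosome and encodes a diacylglycerol lipase, an enzyme that makes lipid messengers needed for the opening of TRP channels. Its brightest probe set was at 7.16, 7.06 and 7.11 in mutants against 8.49, 8.45 and 8.31 in controls. In the Runt experiment it was at 7.17, 7.70 and 7.29 in Runt and at 7.12, 7.48 and 7.48 in Runt G163R. The 3 controls were above all 9 other arrays. The level fell by 1.30 on the log2 scale in mutants relative to controls (SE 0.148, adjusted p = 0.000422), so the controls were 2.47-fold higher. Its sens and Runt differences also differed from each other, by 1.33 (adjusted p = 0.00486), as they did for 1 of the 15 tested members and 11.5% of all genes tested.

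Of the 4 other probe sets of inaE, 2 had differences of the same sign and 2 of the opposite sign, and none passed the test. The second was at 5.84, 6.27 and 6.41 in mutants against 5.08, 6.14 and 5.90 in controls, and the next at 5.54, 5.53 and 5.47 against 4.70, 5.51 and 5.43. Both means were higher in mutants, by 0.47 (adjusted p = 0.28) and 0.30 (adjusted p = 0.345). Without control replicate 1, the lowest array of each, they were 0.15 and 0.043. The dimmest pair, at 3.01 to 4.34 over all arrays, had differences of -0.29 (adjusted p = 0.378) and -0.41 (adjusted p = 0.0943), and for the first of these the mutants lay below the controls without overlap. With all 5 averaged before the fit, the difference was -0.25 (adjusted p = 0.263) and the call was lost. The fall therefore holds for 1 probe set and is not shown for the gene as a whole.

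**Figure D3:**
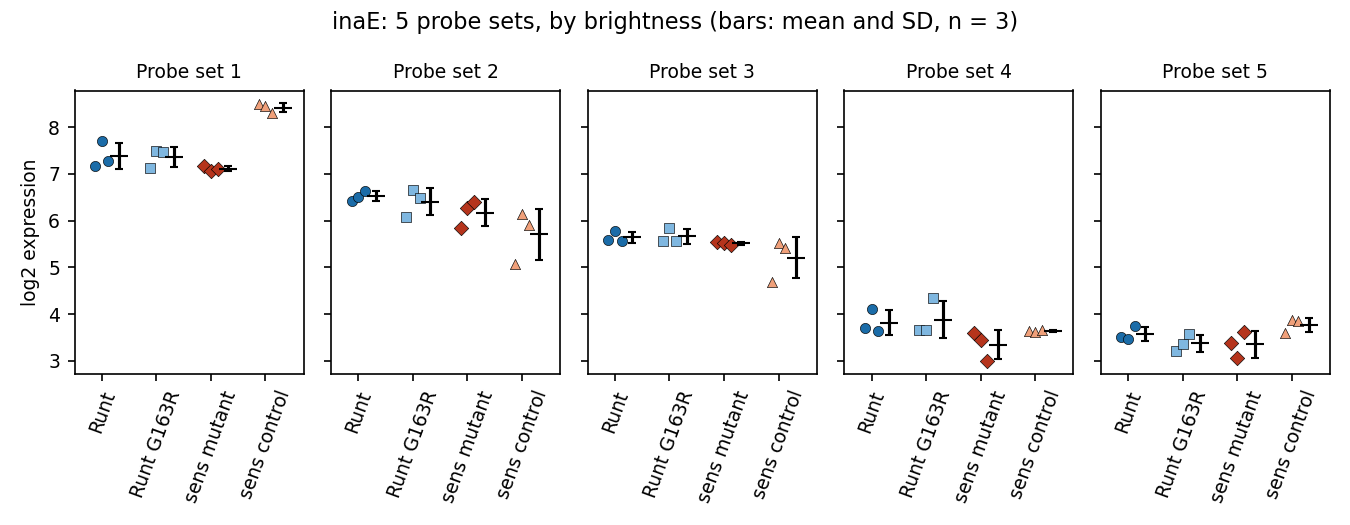
Level (log2 expression, y axis) of the 5 probe sets of inaE in each array by group, ordered by brightness, with the mean and SD of 3 arrays to the right of each group. For the first, the controls lie at 8.31 to 8.49 and every other array at 7.06 to 7.70, while in the next 2 panels the control means are the lowest.

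Markers of other tissue also set the controls apart. The mean of 8 brain and neuroblast markers was 5.82 to 6.16 in controls and under 5 in the other 9 arrays. Of the 6 tested, 5 were called lower in mutants, against 5.97% of all genes tested. Of its defining genes, Tbh and Rx lay in the floor in all arrays. The mean of 7 antenna and leg markers was 7.63 to 7.99 in controls and 6.66 to 7.33 elsewhere, with 3 of 7 called lower in mutants. The median difference of these 7 was -0.57. The mean of the 20 eye disc and photoreceptor markers was 8.98 to 9.19 in mutants and 9.34 to 9.61 in controls. In the Runt experiment it was 9.37 to 9.71. Of these 20 markers, 6 were called lower and 3 higher in mutants, against 5.97% and 13.4% of all genes tested. The part of these tissues, or of the photoreceptor markers, in the inaE difference was not tested.

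Further members had differences in the sens comparison that did not pass the test. The gene rdgA, which encodes the diacylglycerol kinase of the phosphoinositide cycle, was at 5.33, 5.63 and 5.39 in mutants against 5.10, 4.84 and 5.08 in controls, without overlap. The difference was 0.44 (SE 0.149, adjusted p = 0.0699). In the Runt experiment rdgA was at 4.69 to 5.11, and its 3 other probe sets were at 2.19 to 3.05 over all arrays. The carotenoid oxygenase gene ninaB, which makes the retinal chromophore, was at 6.23, 6.11 and 6.29 in mutants against 4.89, 5.67 and 6.13 in controls. The difference was 0.65 (SE 0.29, adjusted p = 0.161), with 0.31 (adjusted p = 0.434) without control replicate 1 and 0.93 (adjusted p = 0.0424) without control replicate 3. In Runt and Runt G163R, ninaB was at 5.76, 5.39 and 6.13 and at 6.10, 5.99 and 6.28, so control replicate 1 was the lowest of all arrays.

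The receptors for carotenoid uptake had differences of opposite sign. For ninaD the mutants were at 4.93, 5.44 and 5.30 and the controls at 5.63, 6.09 and 7.36, a difference of -1.13 (SE 0.501, adjusted p = 0.156). For santa-maria, whose product takes up carotenoid in neurons and glia, the mutants were at 6.80, 7.77 and 6.85 and the controls at 6.74, 6.57 and 6.19, a difference of 0.64 (SE 0.252, adjusted p = 0.114). Neither passed the test, although the groups did not overlap for either. Without control replicate 3 the ninaD difference was -0.63, and without mutant replicate 2 the santa-maria difference was 0.32. The 4 fat body markers measured varied widely between arrays, with a list mean of 10.8, 6.84 and 3.60 in control replicates 1, 2 and 3, and of 4.77, 9.19 and 3.41 in mutants. The array with the highest ninaD, control replicate 3, had a fat body mean of 3.60. The array with the highest santa-maria, mutant replicate 2, had a fat body mean of 9.19, the second highest of 12. Control replicate 1, with the highest fat body mean (10.8), had santa-maria at 6.74. That was under mutant replicates 1 and 3 (6.80 and 6.85), whose fat body means were 4.77 and 3.41. Whether fat body RNA has a part in the santa-maria level was not tested. The mean of 7 glial markers was 6.97 to 7.35 in mutants and 6.86 to 7.14 in controls. Of these 7, 2 were called higher and 1 lower in mutants, against 13.4% and 5.97% of all genes tested.

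Across experiments, 3 of the 15 tested members did not overlap, and all 3 were higher in the sens experiment. Over all genes tested 26% did not overlap, 11.7% being higher in the sens experiment. For rdgC, which encodes the rhodopsin phosphatase, the Runt arrays were at 5.41, 5.92 and 4.37 and the Runt G163R arrays at 4.51, 4.94 and 5.57. The mutants were at 6.76, 6.42 and 6.52 and the controls at 6.86, 7.35 and 7.45. So rdgC crossed 5 within the Runt experiment and was above it throughout the sens experiment, with means 1.77 apart on the log2 scale. Within the sens experiment the mutants were lower without overlap, by -0.65 (SE 0.386, adjusted p = 0.285). Its other probe set was at 2.94 to 3.34.

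The gene rdgB encodes a phosphatidylinositol transfer protein that refills the light-sensitive membrane. It was at 7.22, 7.44 and 7.56 in Runt, at 6.85, 7.48 and 7.56 in Runt G163R, at 8.29, 8.61 and 8.37 in mutants against 8.73, 8.73 and 8.25 in controls. The groups overlapped within each experiment, and the experiments were 1.15 apart. For santa-maria they were 1.03 apart. Haemocyte markers separated the experiments in the other direction, with a mean of 9 markers of 7.45 to 8.40 in the Runt experiment and 4.21 to 5.72 in the sens experiment. Experiment, genetic background and tissue content cannot be told apart here, so levels were not tested between the experiments.

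**Figure D4:**
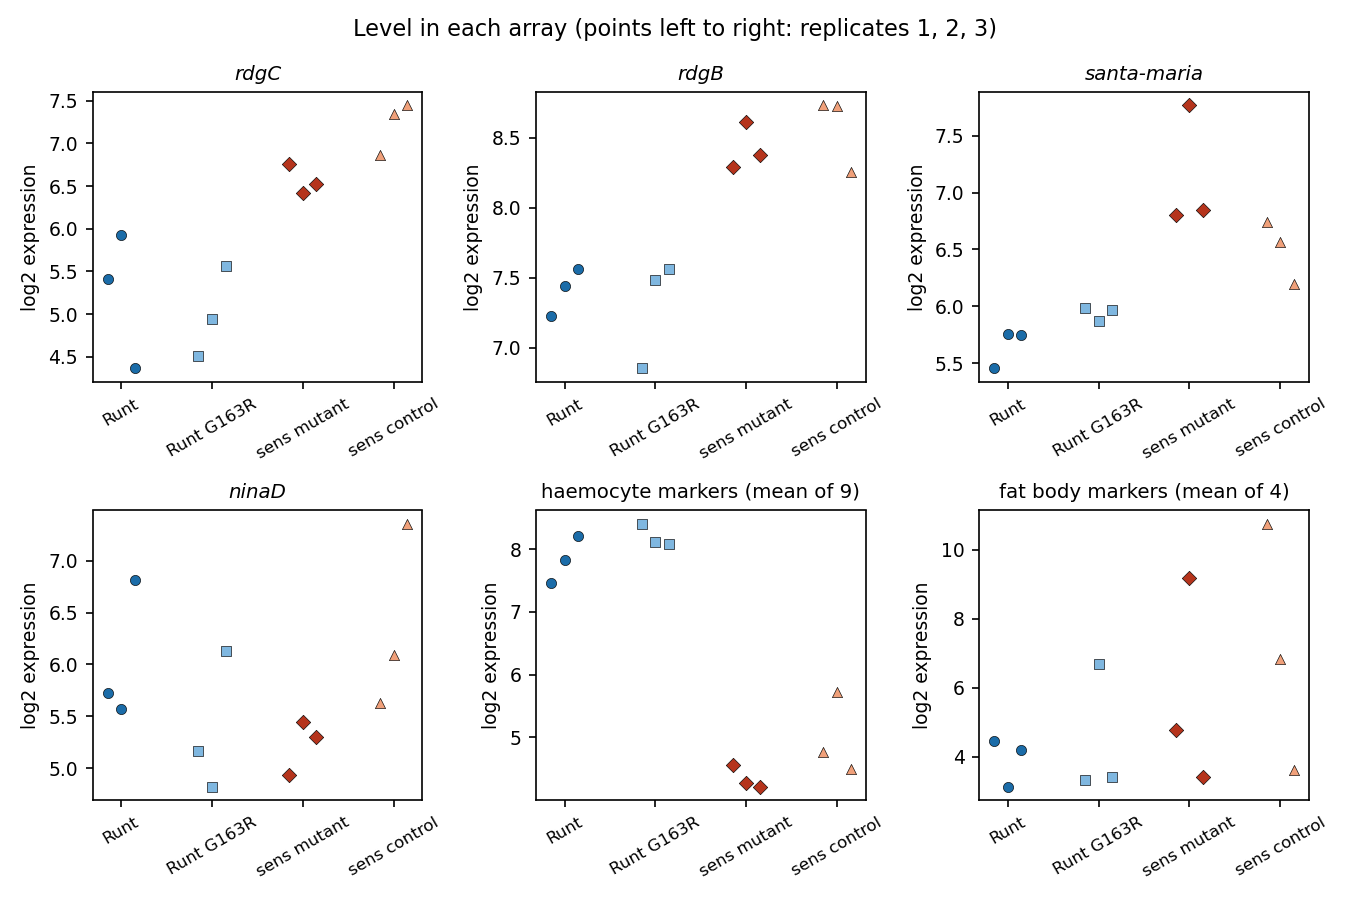
Level (log2 expression, y axis, scaled per panel) of rdgC, rdgB, santa-maria and ninaD and the mean of the haemocyte and fat body marker lists in each array, by group. The first 3 genes are higher in all 6 arrays of the sens experiment, haemocyte markers are higher in all 6 arrays of the Runt experiment, and fat body markers range from 3.12 to 10.8.

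The wider pathway was read from 81 further genes in 7 lists, of which 65 had a probe set and 56 were tested. Of the 65, 50 were above 5 in all arrays (against 46.7% of all genes) and 13 were at or under 5 in all (against 46.0%). The 13, named after their values were seen, included the retinol dehydrogenase genes Pdh and RdhB, the corneal protein gene retinin, eys and prom, which shape the spaces between rhabdomeres, and the exchanger gene Nckx30C. Pph13, a homeobox regulator of adult rhodopsin genes, had group means of 3.26 to 4.21. By contrast oc, which encodes the regulator Otd, had group means of 8.51 to 9.63. The 12 measured rhodopsin regulators other than Pph13 were above 5 in all arrays.

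In the Runt comparison none of the 56 was called by limma, where 5 had an unadjusted p under 0.05 (6.70% of all genes tested had one) and the smallest adjusted p was 0.652. In the sens comparison 4 rose (7.14%, against 13.4% of all genes tested) and 8 fell (14.3%, against 5.97%). By list, the phosphoinositide cycle had 1 of 13 higher and 1 lower, other G proteins and receptor kinases 1 of 8 higher, calcium and calmodulin 1 of 5 lower, and photoreceptor structure 2 of 10 lower. Regulators of rhodopsin genes had 2 of 13 higher and 4 lower. None was called among 6 tested folding and transport genes or for the 1 tested retinoid gene, pinta.

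The genes with the smallest p were CanB, nrv3, sens and PIP5K59B. CanB, a calcineurin regulatory subunit gene, fell by 1.23 (SE 0.111, adjusted p = 0.000105), from 9.65 ± 0.142 in controls to 8.42 ± 0.0763 in mutants (SD, n = 3). The Runt and Runt G163R means of CanB were 9.22 and 8.85. PIP5K59B, a phosphatidylinositol phosphate kinase gene, fell by 1.14 (SE 0.176, adjusted p = 0.0023), from 7.90 ± 0.108 to 6.76 ± 0.158 (SD, n = 3), with Runt and Runt G163R means of 7.35 and 7.15. These values are those of its brightest probe set. With its probe sets averaged before the fit, the PIP5K59B difference was -0.44 (adjusted p = 0.0185), so the size of the fall depended on the probe set. Among the others, nrv3, which encodes a subunit of the sodium pump, fell by 1.15 and the transcript of sens was higher by 1.29. The genes counted as rising thus include sens itself, whose elements differ in copy number between mutants and controls. The origin of its higher signal was not tested. The means of the brain and antenna markers were higher in controls than in mutants. The part of these tissues in the falls of CanB, nrv3 and PIP5K59B was not tested.

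**Figure D5:**
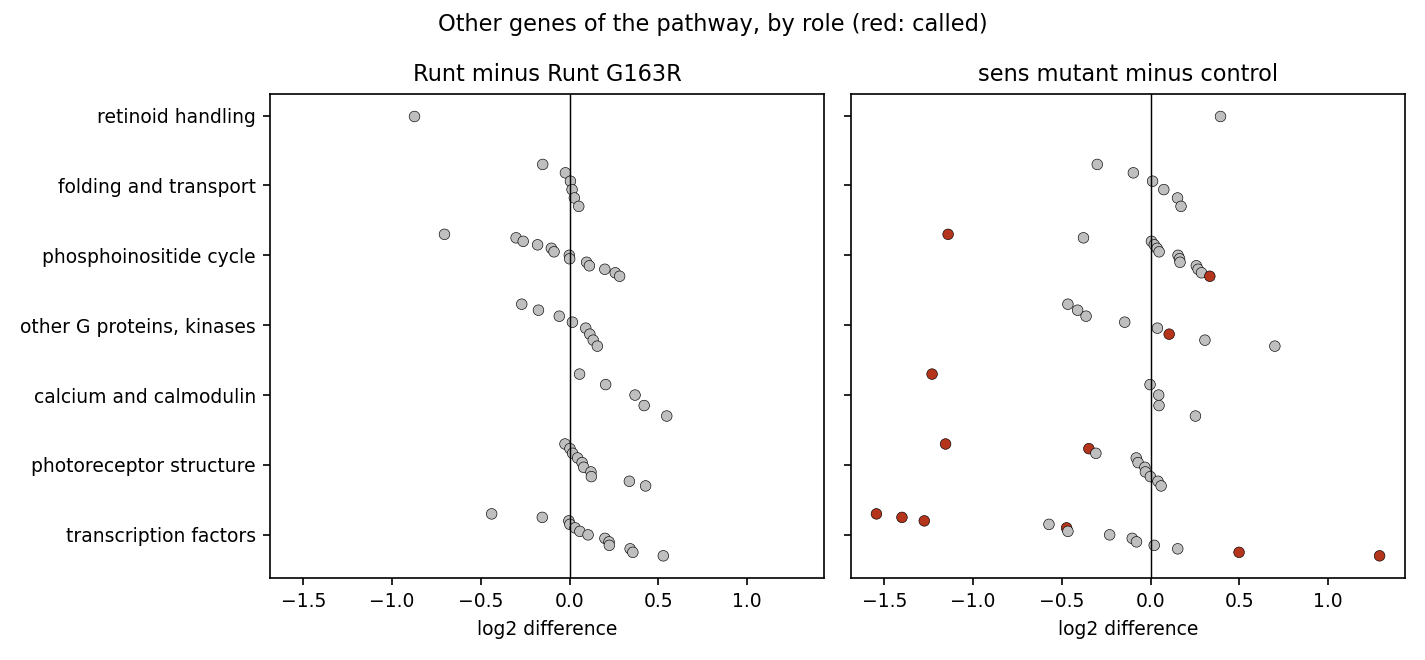
Log2 difference (x axis) of the 56 tested genes of the wider pathway, each a point, by list (rows), for Runt minus Runt G163R on the left and sens mutant minus control on the right. Red points passed the test: none on the left, and 4 higher and 8 lower in mutants on the right.

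By chromosome, 12 of the 24 measured members lie on chromosome 3, where sens lies, and 8 of these were tested. Of the 10 members above the floor, 3 lie there, ninaB, rdgC and Cds.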

How the data were processed

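The deposited values are log2 expression per probe set for 12 arrays. The tools named per the submitters' processing notes are GCRMA, MAS5 and affy, without role or version. How the authors made the deposited log2 values is otherwise not stated in the labels. Each labelling used 6 ug of total RNA, per the labels' protocols. The table holds 18952 probe sets, 183 of them manufacturer's controls, which were left out. The platform annotation names 13647 probe sets to 1 gene, 402 to several and 4720 to none. Symbols were updated through gene identifiers with RefSeq (Release 6 plus ISO1 MT), used for names and chromosome arms only.

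Probe sets over the 40th percentile of the array on 3 or more arrays were kept, 11449 in all, with 8210 genes by brightest probe set. limma 3.58.1 in R 4.3.3 fitted 4 group means to all 12 arrays (lmFit, eBayes with an intensity trend). Tests were two-sided, Benjamini-Hochberg adjusted over all kept probe sets, with 0.05 as the limit for a call. Adjusted p-values in the text come from this limma model. No pair of arrays shared more than 1 identical value. The fit was tested on simulated data.

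Members and lists were chosen with earlier results of these data known. All members were accounted for. Of the wider pathway, the 4 called genes with the smallest p per comparison were named, and other names there were chosen after their values were seen. The filter, normalization, variance model, array weights, arrays used, replicate block, probe set summary, threshold of 5 and each replicate were varied in turn. Replicate numbers did not pair the arrays, with correlations of same-numbered deviations of 0.256, -0.121 and 0.0646 in the Runt experiment and -0.420, -0.0673 and 0.0756 in the sens experiment. The number of arrays limits the precision.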

Additional observations from a re-analysis of the deposited data

How the results depend on the processing

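The fall of the brightest inaE probe set kept its direction and its call in 20 of 21 alternatives, and was lost with probe sets averaged (-0.25). In the sens comparison 1 member was called. The count was 3 after subtracting each array's median, with rdgA at 0.49 and stops at 0.38, both higher. It was 2 without an intensity trend (with rdgA), 3 with array weights (with rdgA and stops) and 0 with probe sets averaged. Over all probe sets, 16.9% were called in the main fit. That share was 19.8% with medians subtracted, 17.4% without a trend, 23.3% with array weights and 17.9% with averaging. When each replicate was left out, the count of members was 1 to 2. The second was stops without mutant replicate 1 or 2, or ninaB without control replicate 3. In these 3 fits, in that order, 10.7%, 12.8% and 17.5% of all probe sets were called. In the Runt comparison the count of 0 became 1 with array weights, Gbeta76C at 0.19 in the floor, and was 0 under all other alternatives. Array weights also raised the Runt calls over all probe sets from 5 (0.0437%) to 464 (4.05%). Members whose 2 contrasts differed numbered 1, but 4 with array weights, 0 with probe sets averaged and 1 to 2 when each replicate was left out. The share of all probe sets whose contrasts differed was 10.1% in the main fit and 23.4% with array weights. Called genes of the wider pathway in the Runt comparison rose from 0 to 6 with array weights, where calls over all probe sets rose to 4.05%. In the sens comparison, where 8.09% to 26.6% of all probe sets were called, they ranged from 10 to 17 around 12. A second quantile normalization moved their split from 4 higher and 8 lower to 2 and 10, and the share of all called probe sets that were higher from 68.7% to 50.4%. Members above the level in every array numbered 6 at 5, 10 at 4 and 5 at 6. With the replicate block, 1 member was called in the sens comparison and 0 in the Runt comparison, and over all probe sets 1567 and 1 in place of 1940 and 5. The arrays did not each correlate best with their own number. Runt differences that were not called changed sign for some genes. With array weights rdgB was -0.030 and the second inaE probe set -0.073, and after a second quantile normalization the next inaE probe set was 0.0078. When each replicate was left out, the Runt difference ranged from -0.023 to 0.30 for inaC, from -0.13 to 0.13 for inaE, from -0.11 to 0.24 for rdgB, from -0.12 to 0.66 for rdgC, and from -0.041 to 0.24 and -0.090 to 0.071 for the second and the next inaE probe set. The causes of these shifts were not tested. Levels in the floor are compressed, so differences there have no reliable size.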
